A study of Rattus norvegicus with 36 samples.

Results

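A set of 7 genes that take up, carry, activate and store fatty acids was followed in rats that had inhaled crystalline silica: Lpl, Gpihbp1 (RGD1564237 in the files), Cd36, Fabp4, Fabp5, Acsl1 and Plin2 (Adfp in the files). They were chosen by gene symbol and not by measured values. Of these 7 genes, 6 had a probe, 1 each, among the 21792 probes of the Illumina rat BeadChip, an array of oligonucleotides carried on beads, and no probe carried the symbol Fabp5. Male rats of the Fisher (CDF) 344 strain, about 3 months old by the labels, inhaled either air (0 mg/m3) or silica (15 mg/m3), on 5 days with 6 h each. Lung tissue, cells of the bronchoalveolar lavage fluid (BALF cells) and blood were collected 44 weeks later. Each tissue had 6 silica rats and 6 air rats, the same 12 rats in all 3 tissues by the labels, giving 36 arrays. Blood RNA had been depleted of globin messages, and whether the lungs were lavaged before their RNA was taken is not given in the sources used here.

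Fatty acids can reach lung cells from circulating triglyceride. Lipoprotein lipase (Lpl) hydrolyses it at the capillary wall, where Gpihbp1, a protein of endothelial cells, holds the enzyme. Cd36 helps fatty acids across the cell membrane, Fabp4 and Fabp5 carry them in the cytosol, Acsl1 couples them to coenzyme A, and Plin2 coats the droplets in which they are stored as esters. Alveolar macrophages, which clear surfactant lipid from the airspace, are known for many of these proteins, and their foamy form is a familiar finding in silicosis.

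Promoter sequences of 3 of the 6 genes with a probe (Plin2, Cd36 and Acsl1) were in the RefSeq table of build GRCr8. Those of Plin2 and Acsl1 are shown because both genes rose in the lung. Each runs 5′ to 3′ on the strand of the gene, from 250 bases before the annotated start to 50 bases after it. Capitals mark matches on either strand to 1 of 6 motifs: the nuclear receptor element AGGTCA, its direct repeat spaced by 1 base, the E-box CACGTG, the CCAAT box, the Sp1 type box GGGCGG and the TATA box written TATAAA.
Plin2, upstream start, chr5:106228969-106229268, minus strand: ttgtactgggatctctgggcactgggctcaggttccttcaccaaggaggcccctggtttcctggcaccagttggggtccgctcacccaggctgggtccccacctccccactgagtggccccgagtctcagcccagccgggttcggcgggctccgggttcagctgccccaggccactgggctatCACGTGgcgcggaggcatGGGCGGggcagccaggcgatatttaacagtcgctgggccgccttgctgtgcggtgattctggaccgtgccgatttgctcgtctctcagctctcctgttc
Plin2, downstream start, chr5:106228488-106228787, minus strand: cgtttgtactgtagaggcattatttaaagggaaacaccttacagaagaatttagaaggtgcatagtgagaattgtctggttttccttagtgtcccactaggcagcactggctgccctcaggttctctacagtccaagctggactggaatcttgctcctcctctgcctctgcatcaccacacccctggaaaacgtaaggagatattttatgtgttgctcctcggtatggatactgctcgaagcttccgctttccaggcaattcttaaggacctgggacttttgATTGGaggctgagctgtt
Acsl1, chr16:52532343-52532642, minus strand: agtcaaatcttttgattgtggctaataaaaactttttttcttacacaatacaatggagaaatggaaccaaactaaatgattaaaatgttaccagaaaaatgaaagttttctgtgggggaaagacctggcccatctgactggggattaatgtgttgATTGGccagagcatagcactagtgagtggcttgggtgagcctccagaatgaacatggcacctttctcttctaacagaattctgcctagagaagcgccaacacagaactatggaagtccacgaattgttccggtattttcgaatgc
The element AGGTCA is in none of the 3 windows, and 16.2% of all 33469 promoter windows in the table hold it. The upstream Plin2 window holds 1 CACGTG (6.42% of all windows do) and 1 GGGCGG (33.1%). The downstream Plin2 window and the Acsl1 window hold 1 CCAAT each, on the opposite strand (printed as ATTGG), as 37.5% of all windows do. These are matches of letters, not tested sites.

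An array detected 10974 to 11607 probes in lung, 9229 to 9773 in BALF cells and 7244 to 8861 in blood. Tissue labels were set against marker genes: all 9 alveolar type 2 markers passed the detection filter in the lung. In BALF cells 8 of 9 alveolar macrophage markers with a probe did so. Of the 9 type 2 markers 4 passed there too, the surfactant gene Sftpa1 among them, while Sftpc, Sftpb, Sftpd, Lamp3 and Slc34a2 did not. All 7 erythroid markers with a probe passed in blood. In the lung the same 7 erythroid markers and 8 of 9 alveolar macrophage markers passed as well, so detection of these lists alone does not separate the tissues. The blood arrays had the dimmest upper range, with a 95th percentile of raw intensity of 514 to 1104 against 2276 to 2980 in the lung. Air replicates 1 and 2 and silica replicate 6 were the lowest of these. Each member was read on 26 to 62 beads per array, with a bead standard error of 1.82% to 6.23% of its intensity.

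Before any effect of silica, the tissues of the air rats were compared, with all 36 arrays normalized together and the rat as a block. Lpl, Fabp4 and Plin2 were highest in BALF cells, Acsl1 was highest in blood, Cd36 was highest in blood under this scaling and in BALF cells with a median shift, and Gpihbp1 was detected in the lung and on 0 arrays of BALF cells and blood. Of 18 pairwise differences between tissues, 17 passed an adjusted p of 0.05 (limma, Benjamini-Hochberg). That share means little by itself, because 80.5% of the 11612 probes tested differed between lung and BALF cells, 79.3% between BALF cells and blood and 85.6% between lung and blood.

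Lpl spanned a wide range. Its log2 intensity in air rats was 14.85 to 15.18 in BALF cells (median 15.07), 14.14 to 14.56 in the lung (median 14.29) and 5.41 to 6.76 in blood (median 6.25). BALF cells exceeded the lung by 0.73 ± 0.17 (SE) on the log2 scale (adjusted p = 0.000969) and blood by 8.90 ± 0.17 (adjusted p = 9.18e-16), where Lpl was near the background and was detected on 5 of 6 air arrays. The difference from blood depended on the processing and ran from 7.53 to 9.64 under 3 other settings. Lpl was among the brightest probes of every BALF array, between rank 1 and rank 27 of 21792 and at 83.6% to 100% of the brightest intensity, so that changes there were read near the top of the scale. Plin2 was at 74.3% to 86.7% of the brightest intensity in the same arrays.

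Fabp4 had a log2 intensity of 11.82 to 12.55 in the BALF cells of air rats (median 12.13) and 8.11 to 8.92 in their lungs (median 8.47), a difference of 3.64 ± 0.15 or 12.5-fold (adjusted p = 1.42e-11). In blood it was detected on 1 array of 12, so its level there is a bound set by the background. Plin2 was 5.45-fold higher in BALF cells than in the lung (log2 difference 2.45 ± 0.13, adjusted p = 2.11e-10) and 5.02-fold higher in the lung than in blood (2.33 ± 0.13, adjusted p = 2.42e-10). Under 3 other settings the log2 difference between lung and blood was larger, 2.51 to 3.62. The ranges of the 3 tissues did not overlap for Lpl, Fabp4 or Plin2.

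Cd36 and Acsl1 were highest in blood under the joint scaling. Cd36, which platelets, erythroid cells and monocytes also carry, had a median log2 intensity of 12.96 in the blood of air rats, 12.22 in BALF cells and 11.40 in the lung, and its range in blood (12.78 to 13.22) did not meet that in BALF cells (12.04 to 12.63). The 1.61-fold excess of blood over BALF cells (log2 difference 0.69, SE 0.13, adjusted p = 0.000183) rests on the scaling: it turned to 0.17 in favour of BALF cells with a median shift (adjusted p = 0.280), and BALF cells minus blood was -0.11 with the authors' processed values (adjusted p = 0.401). Acsl1 was 4.42-fold higher in blood than in BALF cells (adjusted p = 2.00e-13) and 1.83-fold higher in BALF cells than in the lung (adjusted p = 9.81e-09). On the log2 scale BALF cells minus blood was -2.14 for Acsl1, and between -2.20 and -0.51 under 3 other settings, with the test passed in each. Gpihbp1 had a median log2 intensity of 8.65 in the lung of air rats, and no array of BALF cells or blood detected it, so no fold is given.

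**Figure D1:**
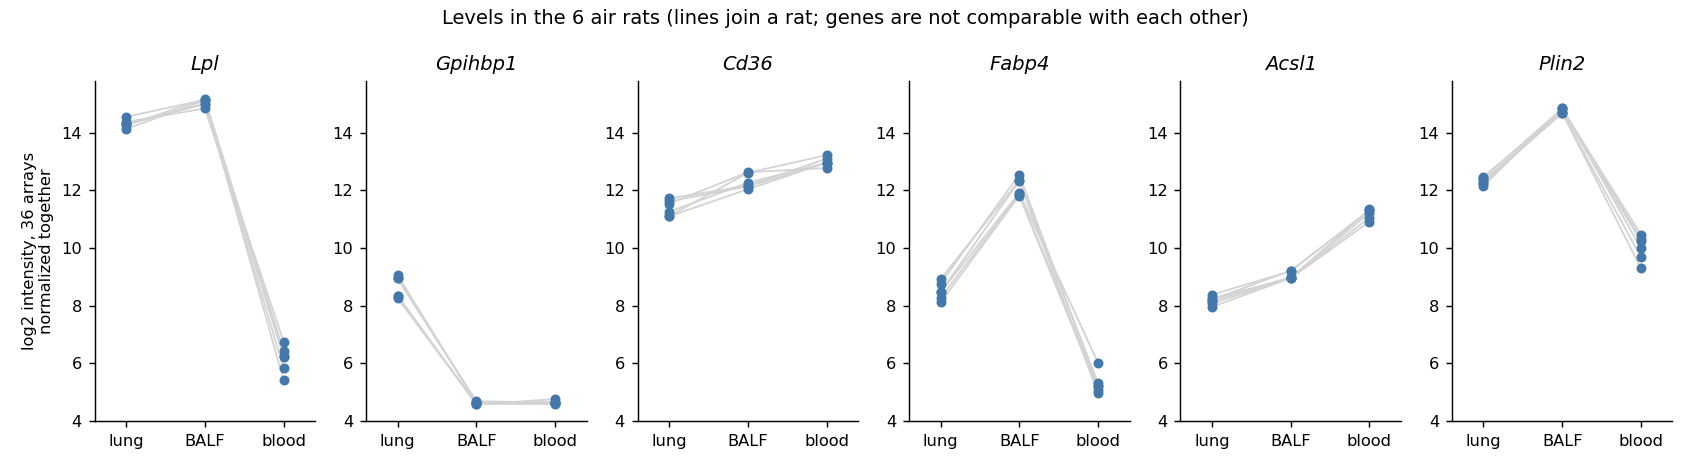
Log2 intensity of each gene in the 6 air rats (y axis, 36 arrays normalized together) in lung, BALF cells and blood (x axis), with lines joining the samples of a rat. Lpl, Fabp4 and Plin2 peak in BALF cells, Acsl1 in blood, Cd36 in blood too but not with a median shift, and Gpihbp1 leaves the background level only in the lung.

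The main question was which of these genes differed between silica and air rats 44 weeks on. In the lung, 4 of the 6 measured genes changed: Fabp4, Plin2 and Acsl1 rose and Gpihbp1 fell, while Lpl and Cd36 did not pass the test. Among all 11399 probes tested in the lung, 8.97% were higher and 10.2% were lower at the same threshold. Where silica and air rats are said below not to overlap, the share of all probes without overlap is not given. All values that follow are log2 intensities normalized within a tissue, and each change is the mean of 6 silica rats minus that of 6 air rats with its standard error. In RNA from whole tissue or mixed cells, fewer cells of a type and less RNA per cell cannot be told apart.

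**Figure D2:**
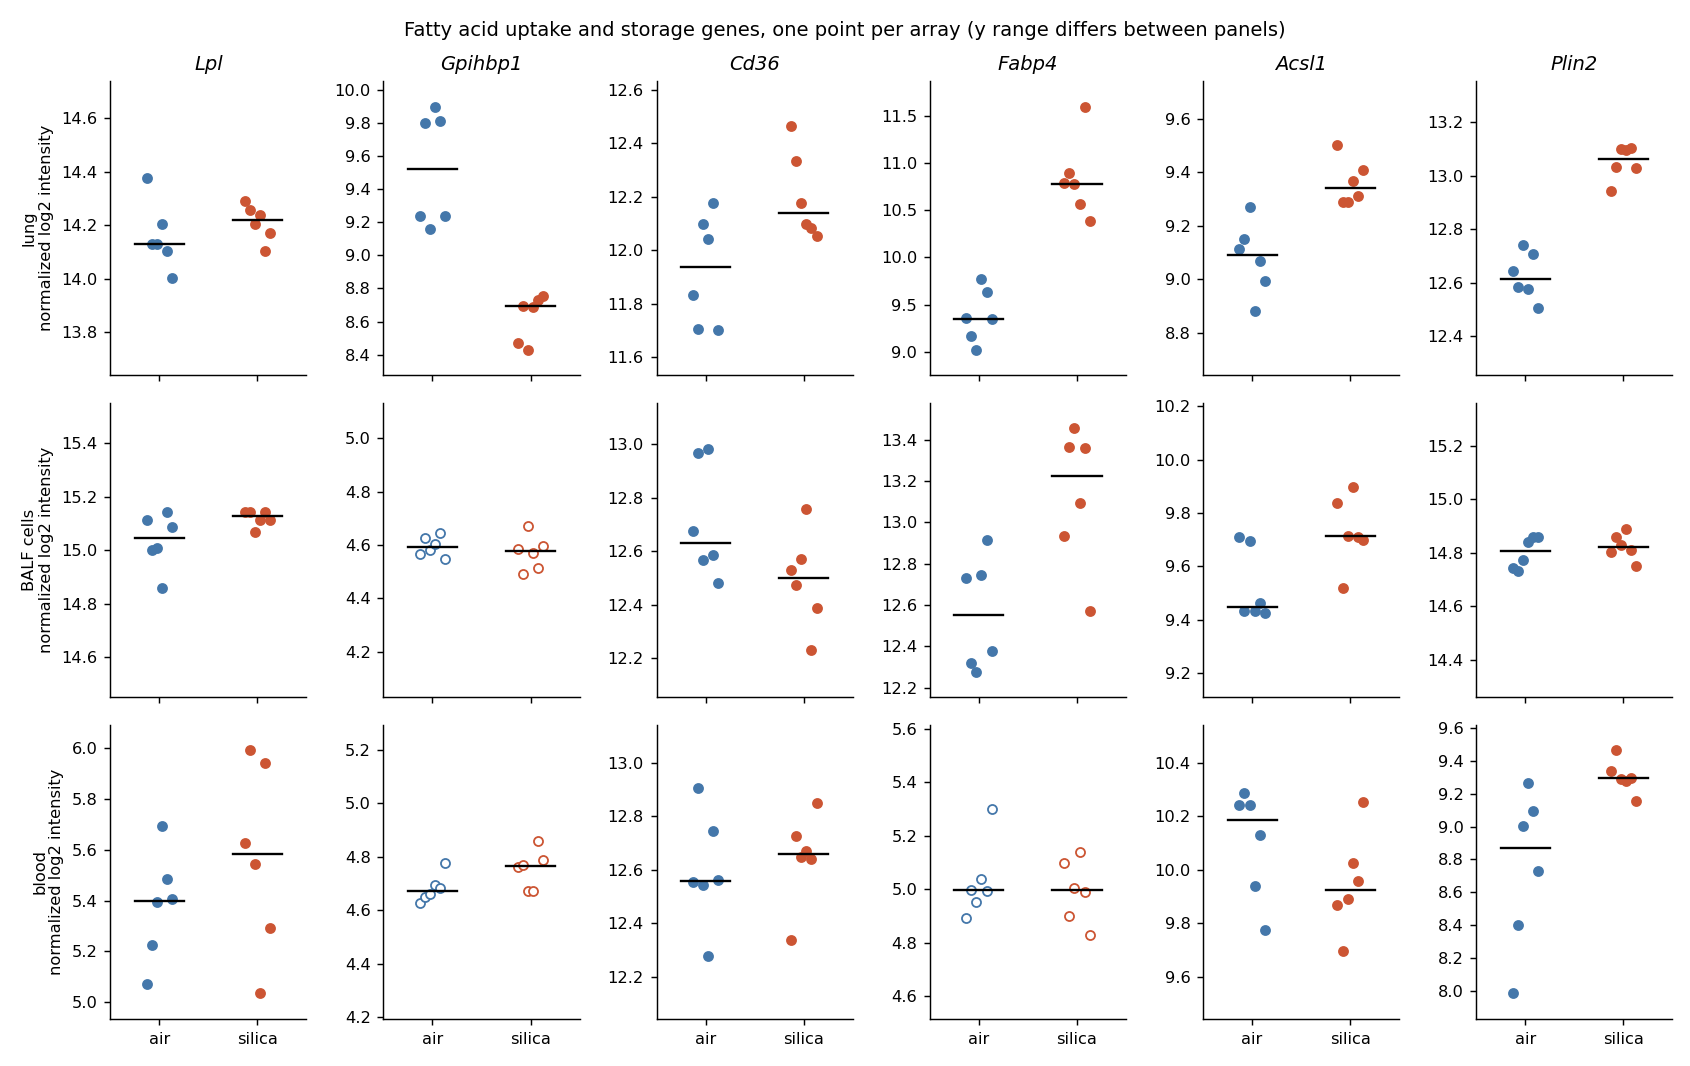
Normalized log2 intensity (y axis) of the 6 genes in air and silica rats (x axis), 1 point per array, rows for lung, BALF cells and blood, bars for medians, and open points where a gene was not tested. In the lung the silica and air points of Fabp4, Plin2, Acsl1 and Gpihbp1 do not overlap, and in BALF cells the Lpl and Plin2 points lie together. The share of all probes without overlap is not given.

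Lpl did not pass the test in the lung and Gpihbp1 fell. Which lung cells the Lpl RNA came from was not tested. Lpl ranged from 14.00 to 14.38 in air lungs (median 14.13) and from 14.10 to 14.29 in silica lungs (median 14.22). The groups overlapped, and the change of 0.05 ± 0.06 did not pass the test (adjusted p = 0.617, 95% interval -0.08 to 0.19).

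Gpihbp1 ranged from 9.16 to 9.90 in air lungs (median 9.52) and from 8.43 to 8.76 in silica lungs (median 8.69). All 6 silica lungs lay below all air lungs. The air lungs themselves were spread widely: replicates 1, 3 and 6 had raw intensities of 579 to 614, and replicates 2, 4 and 5 had 979 to 1095. Gpihbp1 fell by 0.90 (SE 0.13) on the log2 scale, or 1.86-fold, with an adjusted p of 0.000457.

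Endothelial markers moved with Gpihbp1. Of 12 tested endothelial genes in the lung, 11 fell and 0 rose, with a median change of -0.42 against -0.02 over all probes tested. The largest fall was that of Vwf, which encodes von Willebrand factor (-0.56 ± 0.09, adjusted p = 0.000632). The summed level of the 12 markers was 50573 to 57785 in air lungs and 37637 to 46497 in silica lungs, without overlap. In other scalings 8 to 11 of the 12 fell. Their part in the Gpihbp1 result was not tested.

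Cd36, the membrane receptor, ranged from 11.70 to 12.18 in air lungs (median 11.94) and from 12.05 to 12.46 in silica lungs (median 12.14). The upper air lungs overlapped the lower silica lungs, and 3 of 6 silica lungs exceeded every air lung. Its change of 0.28 ± 0.10 did not pass the test (adjusted p = 0.0680). Without air replicate 5 the adjusted p was 0.0374, and with eBayes run with trend and robust it was 0.0455.

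Fabp4, the cytosolic carrier best known from adipocytes and macrophages, showed the largest change of the set. Its raw intensity was 557 to 986 in air lungs (median 650) and 1531 to 3015 in silica lungs (median 1774), and on the log2 scale 9.02 to 9.77 against 10.39 to 11.60. Every silica lung lay above every air lung, with silica replicate 5 highest. Fabp4 rose by 1.46 ± 0.18 on the log2 scale, or 2.74-fold (95% interval 2.11 to 3.56, adjusted p = 0.000103), the rank 44 change by size among the probes tested in the lung.

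Macrophage markers moved in the same lungs. Of 13 tested monocyte and recruited macrophage genes, 10 rose and 0 fell, and their summed level was 16951 to 20887 in air lungs and 26390 to 33872 in silica lungs. Of 8 tested alveolar macrophage genes, 3 rose and 3 fell, with sums of 14961 to 19530 and 13315 to 16027. Of 6 tested adipocyte genes, 0 rose and 1 fell (Lipe), with sums of 3485 to 4198 and 3152 to 4542, while Adipoq, Retn, Lep, Plin1, Adrb3 and Ucp1 did not pass the detection filter. The part of the macrophage markers in the Fabp4 result was not tested.

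Named genes whose deviations from the air mean over the 12 lung arrays were nearest to those of Fabp4 were Jchain, the joining chain of polymeric antibodies (Igj in the files, root mean square difference 0.29), C4bpa, the alpha chain of a complement inhibitor (0.33), and Sting1, an adaptor in the sensing of cytosolic DNA (RGD1562552 in the files, 0.34). The rule that named them says nothing of function. Of 8 tested T and B cell markers in the lung, 2 rose and 0 fell, with sums of 2540 to 3767 in air rats and 2882 to 8163 in silica rats. The 3 genes' own changes in the lung were 1.36 ± 0.16 for Jchain, 1.48 ± 0.14 for C4bpa and 1.24 ± 0.08 for Sting1. Changes near that of Fabp4 follow from the rule, because the deviations it compares include those of the silica lungs.

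Plin2 and Acsl1 rose by less, with tighter groups. Plin2 ranged from 12.51 to 12.74 in air lungs (median 12.61) and from 12.94 to 13.10 in silica lungs (median 13.06), a gap with no overlap. It rose by 0.42 ± 0.06, or 1.34-fold (95% interval 1.23 to 1.46, adjusted p = 0.000198). Acsl1 ranged from 8.88 to 9.27 in air lungs (median 9.09) and from 9.29 to 9.50 in silica lungs (median 9.34). Its groups did not overlap either, though the highest air lung and the lowest silica lung lay close together, and the rise was 0.28 ± 0.07, or 1.22-fold (adjusted p = 0.0102). In the same lungs 5 of 9 alveolar type 2 markers rose and 0 fell, with sums of 107409 to 126735 in air rats and 118944 to 132828 in silica rats. Of 7 erythroid markers 0 rose and 4 fell, with sums of 34058 to 36401 and 29981 to 34659. The part of these and of the macrophage markers in the Plin2 and Acsl1 results was not tested.

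The probe named LOC293963, which the files define as similar to epidermal FABP, was detected on 1 lung array and on 0 arrays of BALF cells and blood, and was not tested. No value stands here for Fabp5.

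In BALF cells, which are mostly macrophages in the healthy rat, 2 of 5 tested genes changed: Fabp4 rose clearly and Acsl1 rose at the edge of the threshold. Lpl, Plin2 and Cd36 did not pass the test, and Gpihbp1 was detected on 0 of 12 arrays. Among all 9564 probes tested in BALF cells, 15.6% were higher and 19.4% were lower. With arrays scaled by a median shift instead of quantiles, the counts over all probes moved from 1493 higher and 1854 lower to 1381 higher and 864 lower.

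Fabp4 ranged from 12.28 to 12.92 in the BALF cells of air rats (median 12.55) and from 12.57 to 13.45 in those of silica rats (median 13.23). In all, 5 of 6 silica rats lay above every air rat, and silica replicate 6 lay among them. The rise was 0.57 ± 0.15, or 1.48-fold (95% interval 1.19 to 1.85, adjusted p = 0.00750).

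Acsl1 ranged from 9.43 to 9.71 in air rats (median 9.45) and from 9.52 to 9.90 in silica rats (median 9.71). The groups overlapped, with 4 of 6 silica rats above every air rat. Its change of 0.20 ± 0.08, or 1.15-fold, had an adjusted p of 0.0483. This call depended on the processing: the adjusted p was 0.0524 when the background was estimated from all detection p-values, the software's default that was replaced here after its results had been seen. It lay between 0.0200 and 0.105 as each rat was left out, above the threshold in 9 of 12 cases, and under it in 4 of 10 other settings. The call was kept without air replicate 1, air replicate 3 or silica replicate 2.

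Lpl and Plin2, both near the top of the intensity scale, showed little difference after normalization. Lpl ranged from 14.86 to 15.14 in air rats and from 15.07 to 15.14 in silica rats, a change of 0.09 ± 0.06 (adjusted p = 0.256). Quantile scaling gives the brightest probe of every array the same value, which caps this change. Lpl was that probe on air replicate 5 and on silica replicates 1, 2 and 5. Its raw intensity, not scaled between arrays, was 32671 to 34071 in air rats (median 33335). In silica rats it was 32875 to 37297 (median 36381). Plin2 ranged from 14.73 to 14.86 in air rats and from 14.75 to 14.89 in silica rats, a change of 0.02 ± 0.05 (adjusted p = 0.769, 95% interval -0.08 to 0.13). The sign of the Plin2 change turned with a median shift (-0.02) and with a shift to the median of detected probes (-0.07). With the authors' processed values the Lpl change was 0.16 (adjusted p = 0.0221).

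Of the 5 tested genes, Cd36 had a lower mean in BALF cells of silica rats. It ranged from 12.48 to 12.98 in air rats (median 12.63) and from 12.23 to 12.76 in silica rats (median 12.50), with 3 of 6 silica rats below every air rat. The change of -0.22 ± 0.10 did not pass the test (adjusted p = 0.112). It was -0.28 (adjusted p = 0.0377) with a shift to the median of detected probes. Of 5 platelet markers with a probe, Pf4 and Ppbp were tested in BALF cells and both fell. Gp1bb, Gp9 and Gp5 were not detected on any array of BALF cells. The sums of the 2 tested markers were 6259 to 8840 in air rats and 3205 to 5079 in silica rats, and their part in the Cd36 values was not tested.

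Cell type markers differed in the same BALF cells. Of 12 tested monocyte and recruited macrophage genes, 9 rose and 1 fell, with summed levels of 46324 to 50709 in air rats and 58868 to 85625 in silica rats. Of 8 tested alveolar macrophage genes, 1 rose and 6 fell, with sums of 15397 to 17698 and 9836 to 12079. Among 5 tested neutrophil genes 3 rose and 0 fell, with sums of 255 to 500 and 685 to 1268. Of 7 tested T and B cell genes 4 rose and 1 fell, with sums of 688 to 908 and 1183 to 2124. Of 4 tested alveolar type 2 genes 2 rose (Napsa and Lpcat1) and 1 fell (Abca3), with sums of 2965 to 4295 and 4685 to 5774. Sftpa1 was tested and did not pass the test. The other type 2 markers, Sftpc, Sftpb, Sftpd, Lamp3 and Slc34a2, did not pass the detection filter in these cells. The part of all these cell type markers in the Fabp4, Acsl1 and Cd36 results was not tested.

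**Figure D3:**
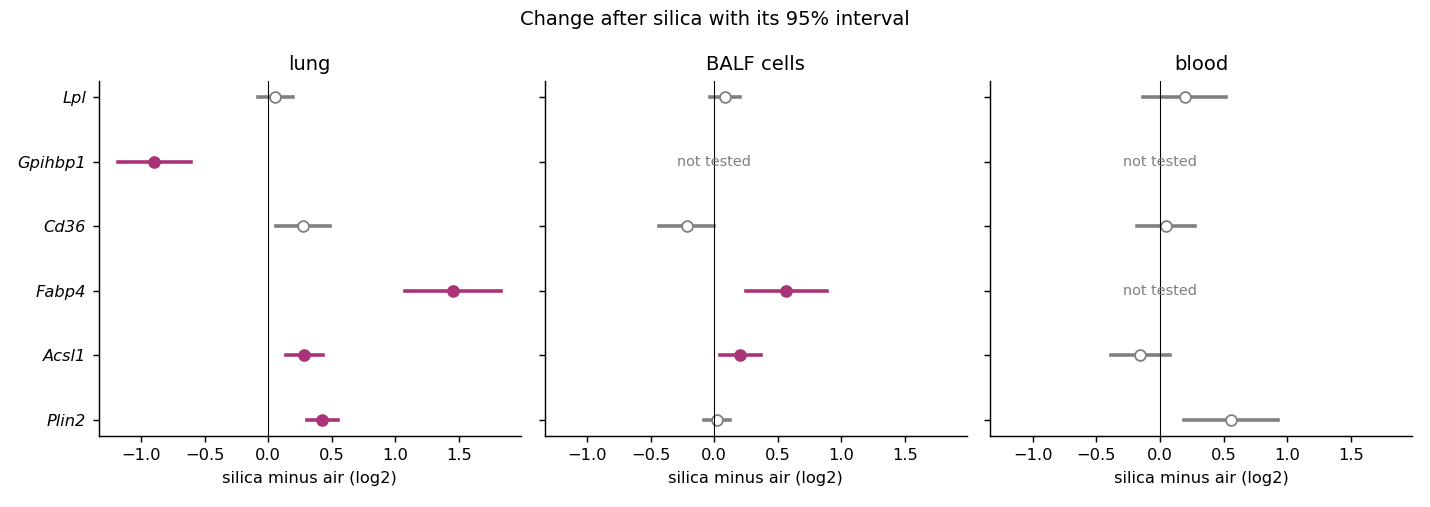
Silica minus air change on the log2 scale (x axis) of each gene (y axis) in lung, BALF cells and blood, as the estimate and its 95% interval, filled where the adjusted p was under 0.05. Fabp4 reaches 1.46 in the lung and 0.57 in BALF cells, Gpihbp1 lies at -0.90 in the lung, and no interval in blood belongs to a call.

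In blood, 0 of 4 tested genes passed the test (limma, Benjamini-Hochberg). The same was true of all 8044 probes (0% higher and 0% lower), although 1092 probes had an unadjusted p under 0.05 and a fit with array weights called 2 probes. Fabp4 (1 array detected) and Gpihbp1 (0 arrays) were not tested. Plin2 ranged from 7.99 to 9.27 in air rats (median 8.87) and from 9.15 to 9.46 in silica rats (median 9.29). In all, 5 of 6 silica rats lay above every air rat, and air replicates 1 and 2, from arrays of low signal, were the lowest. The change of 0.56 ± 0.17 had an adjusted p of 0.186, and it was 0.31 (adjusted p = 0.371) without air replicates 1 and 2 and silica replicate 6. Cd36 (0.05 ± 0.11, adjusted p = 0.884), Acsl1 (-0.15 ± 0.11, adjusted p = 0.589) and Lpl (0.19 ± 0.15, adjusted p = 0.652) overlapped between the groups.

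Whether the tissues differed in their response was tested with the log2 values of 1 tissue subtracted from those of another, rat by rat. Between lung and BALF cells, 3 of 5 genes differed, Fabp4, Plin2 and Cd36, each with the higher silica minus air value in the lung. Over all 9131 probes tested in both tissues, 23.2% differed. The Fabp4 value was higher in the lung by 0.89 ± 0.13 (adjusted p = 0.000149), that of Plin2 by 0.40 ± 0.07 (adjusted p = 0.000804) and that of Cd36 by 0.49 ± 0.14 (adjusted p = 0.0177). Cd36 thus had a higher mean in silica lungs and a lower one in silica BALF cells, and the difference between the tissues passed the test where neither tissue did. For Acsl1 the difference was 0.08 ± 0.08 (95% interval -0.09 to 0.25) and for Lpl -0.03 ± 0.08 (95% interval -0.21 to 0.15).

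The comparisons with blood were less firm. Between BALF cells and blood, 2 of 4 genes differed, against 17.3% of all 7180 probes. Plin2 changed less in BALF cells by 0.54 (SE 0.16, adjusted p = 0.0313), and Acsl1 changed more there by 0.36 ± 0.11 (adjusted p = 0.0361). The Plin2 call was lost in 7 of 12 fits that left out 1 rat and the Acsl1 call in 9 of 12. Between lung and blood, 1 of 4 genes differed, against 4.59% of all 7555 probes: Acsl1, by 0.44 ± 0.11 (adjusted p = 0.0284), a call lost in 7 of 12 such fits. All 3 calls were lost with a median shift. With a median shift the counts over all probes moved from 647 higher and 594 lower to 222 and 130 between BALF cells and blood, and from 214 and 133 to 39 and 13 between lung and blood. Between lung and BALF cells they moved from 1271 and 845 to 702 and 848.

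Over the 6 silica rats, the lung level of a gene was set against its BALF level for the 5 genes tested in both. Fabp4 had a Pearson r of 0.63 (exact permutation p = 0.186, adjusted p = 0.590) and a Spearman rho of 0.49 (exact permutation p = 0.356, adjusted p = 0.542). Without the 2 rats farthest from the median lung level, its r was 0.42. For the other 4 genes Pearson r lay between 0.08 (Lpl) and 0.58 (Acsl1) and Spearman rho between 0.28 and 0.43, none past the threshold by the exact permutation test, the smallest adjusted p being 0.590 for r. Among the 6 air rats Fabp4 had an r of 0.84 (exact permutation p = 0.0347, adjusted p = 0.174) and a rho of 0.94 (exact permutation p = 0.0167, adjusted p = 0.0833).

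Other genes of fatty acid handling were taken from 8 lists. Together, 11 of 90 tested genes (12.2%) rose and 7 (7.78%) fell in the lung, near the shares of all probes there (8.97% and 10.2%). In BALF cells 8 of 81 (9.88%) rose and 32 (39.5%) fell, where 15.6% and 19.4% of all probes did. With a median shift, which also lowered the count of all probes that fell in BALF cells from 1854 to 864, 8 of the 81 rose and 18 fell. In blood 0 members of any list passed the test. The median change over all probes tested was -0.02 in the lung and -0.03 in BALF cells. The lists were chosen with earlier results of these data known. These counts are descriptions, and no list was tested against other genes.

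Among other fatty acid binding proteins and transporters, 3 of 16 tested genes rose and 1 fell in the lung. Olr1, a scavenger receptor for oxidized lipoprotein, rose by 0.63 ± 0.10 and the lysosomal membrane protein Scarb2 by 0.36 ± 0.08, while Vldlr, a receptor for triglyceride-rich lipoprotein, changed by -0.30 ± 0.09. In BALF cells 3 of 15 rose and 6 fell. Fabp3, the heart-type binding protein, rose by 1.03 ± 0.13, and Vldlr (-0.91 ± 0.17) and the fatty acid transporter Slc27a1 (-0.65 ± 0.07) fell. Olr1 and Vldlr in the lung and these 3 genes had adjusted p-values of 1.91e-06 to 0.0346. The size of the Fabp3 change in BALF cells, a dim probe there, ran from 0.10 to 1.09 over 5 other settings, with the test passed in each. That of Olr1 in the lung ran from 0.20 to 0.63, again with the test passed in each. Olr1 was also among the genes that fell in BALF cells (-0.44), a call kept in all 5 other settings. It is on the list of alveolar macrophage markers as well.

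Of the partners and regulators of lipoprotein lipase, 2 of 8 tested genes rose and 1 fell in the lung, all by little: Angptl4, an inhibitor of the enzyme (0.27 ± 0.09), Sel1l, which helps the enzyme leave the endoplasmic reticulum (0.20 ± 0.06), and the sorting receptor Sort1 (-0.26 ± 0.08). The Sort1 call was kept in 0 of 5 other scalings or background settings and the Angptl4 call in 1. In BALF cells 2 of 5 rose and 1 fell. Apoe, an apolipoprotein that macrophages secrete, rose by 5.72 ± 0.38 (adjusted p = 1.52e-08), from a mean log2 intensity of 6.72 to 12.44, the proteoglycan Sdc1 rose by 0.86 ± 0.10, and Sort1 changed by -0.59 ± 0.07. Over 5 other settings the change ran from 4.28 to 5.77 for Apoe and from 0.07 to 0.88 for Sdc1, with the test passed in each. For Sort1 in BALF cells it ran from -0.58 to -0.28, also passed in each. Apoe is also on the list of recruited macrophage markers.

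Of the acyl-CoA synthetases and carriers other than Acsl1, few passed the test. In the lung 1 of 10 rose, Acsbg1 of the bubblegum family (0.94 ± 0.08, adjusted p = 8.22e-06), and 0 fell. Its change ran from 0.29 to 0.94 over 5 other settings, with the test passed in each. In BALF cells 0 of 7 rose and 1 fell, the thioesterase Acot7 (-0.27 ± 0.07, adjusted p = 0.00823).

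Of the droplet proteins other than Plin2, 0 passed the test upward in either tissue. In the lung 1 of 5 tested fell, Fitm2, which helps droplets form (-0.20 ± 0.06, adjusted p = 0.0391). In BALF cells 3 of 5 fell: Cidea (-0.81 ± 0.06, adjusted p = 1.16e-07) and Cidec (-0.29 ± 0.08, adjusted p = 0.0133), both of which promote droplet fusion, and Hsd17b13 (-0.35 ± 0.09, adjusted p = 0.00474). With a median shift 1 of these 5 fell in BALF cells. Over 5 other settings the change there ran from -0.24 to -0.05 for Cidec and from -0.34 to -0.03 for Hsd17b13, each call being kept in 4.

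For the synthesis of triglyceride and sterol esters, 2 of 11 tested genes rose and 0 fell in the lung: Soat1, which esterifies cholesterol (0.38 ± 0.10, adjusted p = 0.0151), and Dgat2, which makes triglyceride (0.34 ± 0.08, adjusted p = 0.00682). In BALF cells 2 of 12 rose and 3 fell, led by the phosphatidate phosphatase Lpin1 (-0.74 ± 0.07, adjusted p = 6.49e-07), with Soat2 at -0.40 ± 0.11 and the acyltransferase Agpat2 at -0.24 ± 0.06. Over 5 other settings the Soat1 change in the lung ran from 0.07 to 0.38. In BALF cells that of Soat2 ran from -0.38 to -0.04 and that of Lpin1 from -0.72 to -0.21. Each of these calls was kept in all 5.

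Lipolysis genes went in both directions in the lung and down in BALF cells. In the lung 3 of 7 rose and 2 fell: the lysosomal lipase Lipa rose by 0.57 ± 0.11 (adjusted p = 0.00260) and the cholesteryl ester hydrolase Nceh1 (Aadacl1 in the files) by 0.46 ± 0.08, and the hormone-sensitive lipase Lipe changed by -0.43 ± 0.12. Over 5 other settings the change ran from 0.05 to 0.58 for Lipa and from 0.24 to 0.46 for Nceh1, with the test passed in each. In BALF cells 0 of 6 rose and 5 fell, with a median change of -0.46. These included the monoglyceride lipase Mgll (-0.68 ± 0.08, adjusted p = 9.00e-06), the droplet triglyceride lipase Pnpla2 (-0.60 ± 0.07, adjusted p = 7.13e-06) and Nceh1 (-0.47 ± 0.06, adjusted p = 1.21e-05). No test of the difference between the tissues is given for these genes.

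Regulators were lower where they changed, apart from Srebf1. In the lung 0 of 14 tested rose and 2 fell, the receptor Rxrg (-0.42 ± 0.09, adjusted p = 0.00646) and the coactivator Ppargc1a (-0.40 ± 0.09, adjusted p = 0.00923). The Ppargc1a change ran from -0.40 to -0.03 over 5 other settings, with the test passed in each. Pparg, the nuclear receptor known to drive Fabp4 and Plin2, had a change of 0.18 ± 0.09 in the lung (adjusted p = 0.181). In BALF cells 1 of 13 rose, Srebf1, a driver of fatty acid synthesis (0.79 ± 0.10, adjusted p = 2.29e-05), and 4 fell, among them Cebpa (-0.57 ± 0.10, adjusted p = 0.000321) and Pparg (-0.50 ± 0.09, adjusted p = 0.000608). Pparg is also among the alveolar macrophage markers, of which 6 of 8 fell in these cells.

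For fatty acid oxidation, 0 of 19 tested genes passed the test in the lung (limma, Benjamini-Hochberg). In BALF cells 0 of 18 rose and 9 fell, with a median change of -0.13. Those that fell included the reductase Decr1 (-0.42 ± 0.05, adjusted p = 2.61e-05) and the short-chain dehydrogenase Acads (-0.29 ± 0.09, adjusted p = 0.0218). With a median shift 2 of the 18 fell and 0 rose. The Acads change ran from -0.28 to -0.12 over 5 other settings, and its call was kept in 4.

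**Figure D4:**
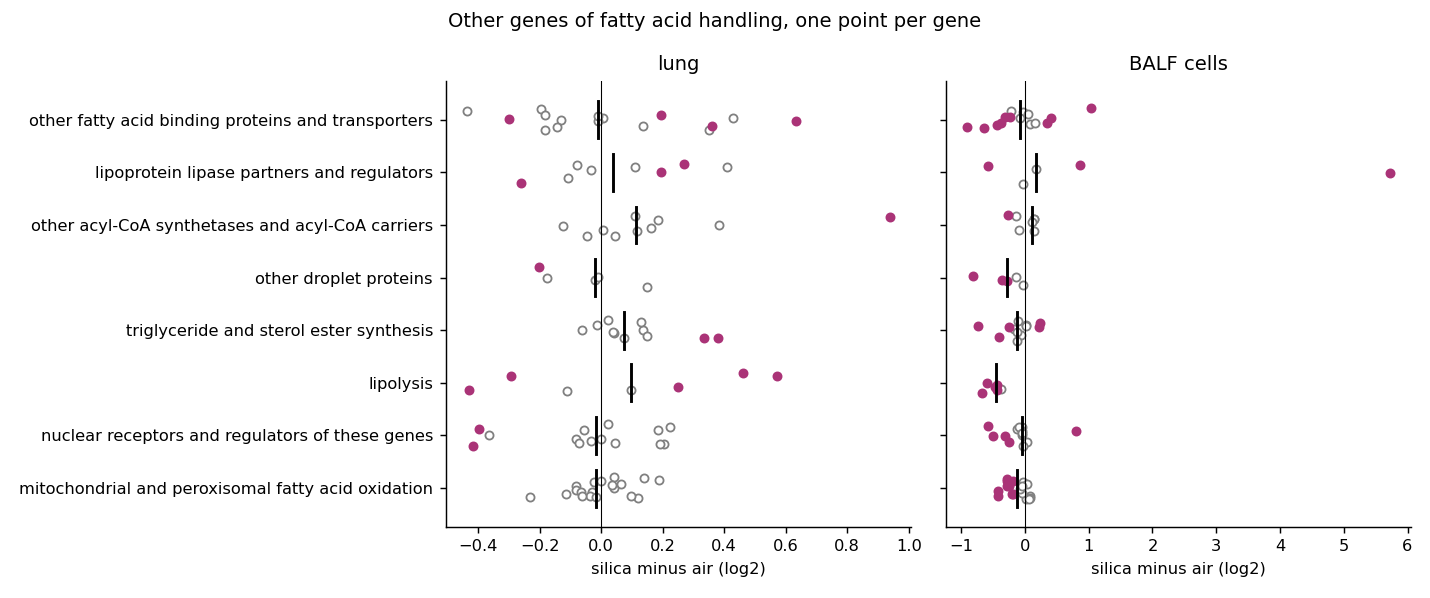
Silica minus air change on the log2 scale (x axis, ranges differ between panels) of each tested gene of 8 fatty acid lists (y axis) in lung and BALF cells, filled where the adjusted p was under 0.05, with a bar at the list median. Lipolysis has 3 higher and 2 lower genes in the lung and 0 higher and 5 lower in BALF cells, and Apoe stands at 5.72 in BALF cells.

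**Figure D5:**
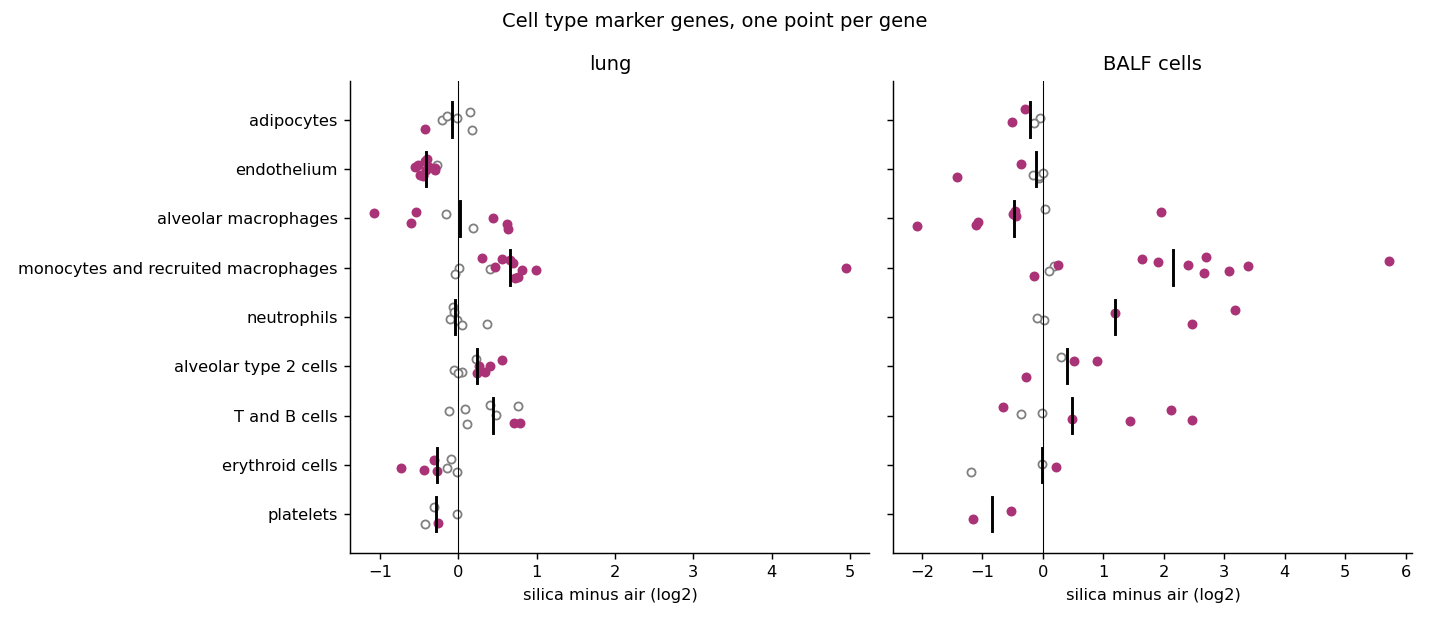
Silica minus air change on the log2 scale (x axis, ranges differ between panels) of each tested marker of 9 cell types (y axis) in lung and BALF cells, filled where the adjusted p was under 0.05, with a bar at the list median. In the lung 11 of 12 endothelial markers fell and 10 of 13 monocyte and recruited macrophage markers rose, and in BALF cells 6 of 8 alveolar macrophage markers fell.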

How the data were processed

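Per the file headers, the deposited tables give each probe's mean bead intensity on every array with a detection p-value, a bead standard error and a bead count, before any normalization between arrays. The authors' own processed values were also deposited, and from their range they are on a log2 scale. Array medians there were 7.61 to 7.62 for lung arrays, 7.52 for BALF cells (lowest and highest) and 7.21 to 7.22 for blood. Which background and scaling steps they had is unknown. BeadStudio, lumi and limma appear in the submitters' processing notes with no version. Slides and scan dates were not used here. Title and description disagree on the number of 1 silica blood sample, replicate 6 here, whose column was found from the description. Its rat was taken from the labels, and the within-rat comparisons with blood rest on that match.

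Each tissue was processed with limma 3.58.1 in R 4.3.3: normexp, whose control level limma infers from the detection p-values, then an offset of 16, quantiles and log2. Probes were tested if at least 6 of 12 arrays detected them (p under 0.05), with lmFit and eBayes, two-sided, and Benjamini-Hochberg adjustment over all of them. Responses of tissues were compared within rats. Levels across tissues came from 36 arrays normalized together, with probes detected on at least 6 of the 18 air arrays. Changes near the background understate changes in RNA. With 6 arrays a group, their number limits the precision.

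The background step departs from the software's default, and this was decided after a first fit with the default had been run and its results for these genes seen. The default infers the control level from all rows, but 656 rows have a combined detection p-value, off the steps that 825 negative controls allow, and with them the inferred control SD was 157 to 355. Leaving them out of that inference gave 10.9 to 17.0. The reason was this control level, not the calls, but 1 call of a member changed: Acsl1 in BALF cells is past the threshold with this setting and not with the default. The default is kept as an alternative.

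The genes, the lists and the tests were chosen with earlier results of these data known. The named genes are all members, the 3 nearest genes of called members with a log2 change of at least 1, and up to 3 called genes of largest change per pathway list in lung and in BALF cells, on the brightest probe of a gene. A gene that this rule names is not reported here. Marker genes and Pparg in the lung are named beside these, after their values were seen. Probe names were updated through RefSeq (GRCr8): 9918 probes carried a current symbol and 4817 a synonym, 6940 kept the name in the files, and 117 had no name. The limma p-values set each difference against the spread between these rats, which eBayes draws toward a value common to the probes tested. Those of r and rho come from permuting the rats. Scripts were checked on simulated data.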

Additional observations from a re-analysis of the deposited data

Results flagged for a closer look

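No member stood apart within a group: of 30 sets of 6 arrays checked, 0 had a lowest or highest array far from the rest, where chance gives about 1 in 20. The results below are flagged because the change after silica differed between tissues of the same rats, by the test of the difference itself (limma on each rat's difference, Benjamini-Hochberg). Between lung and BALF cells the changes differed by 0.89 for Fabp4 (1.46 in the lung and 0.57 in BALF cells), by 0.40 for Plin2 (0.42 and 0.02) and by 0.49 for Cd36 (0.28 and -0.22), all on the log2 scale. Plin2 in BALF cells was read at 74.3% to 86.7% of the brightest intensity of its arrays, and the part of this in the difference was not tested. Between BALF cells and blood the changes differed by -0.54 for Plin2 (0.02 and 0.56) and by 0.36 for Acsl1 (0.20 and -0.15). Between lung and blood the change of Acsl1 differed by 0.44 (0.28 and -0.15).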

How the results depend on the processing

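The lung calls of Fabp4, Plin2, Acsl1 and Gpihbp1, the BALF call of Fabp4 and the lung against BALF differences of Fabp4, Plin2 and Cd36 kept their direction and their side of the threshold under every alternative run. Over all members, 407 of 444 values with 1 rat left out and 251 of 280 under other settings did so. The background from all detection p-values and the list counts under other scalings were added after seeing the data. The number of BALF genes called, 2 as reported, was 1 with a median shift, without a filter, with array weights and with the background from all detection p-values, and 1 to 2 as each rat was left out. Which genes were called varied too: over 10 other settings Fabp4 was called in 10, Acsl1 in 4, Cd36 in 2 and Lpl in 1. Of the BALF against blood genes, 2 were called, against 0 with a median shift, 1 with the authors' processed values and 0 to 2 as each rat was left out. The lung against blood call was 0 with a median shift and 0 to 1 as each rat was left out.

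No called silica effect changed sign. The largest change of sign was that of Cd36 between BALF cells and blood of air rats, from -0.69 (called) to 0.17 with a median shift. In BALF cells Plin2 was -0.019 with a median shift and -0.074 with a shift to the median of detected probes. In blood Acsl1 was 0.012 with a median shift, and Cd36 ranged from -0.018 (without air replicate 4) to 0.11 as each rat was left out. Lung minus BALF, Lpl was 0.020 with a median shift and ranged from -0.073 to 0.013 (without air replicate 4) as each rat was left out. BALF minus blood, Lpl was 0.10 with the authors' values and 0.068 with the background from all detection p-values. Lung minus blood, Lpl was 0.016 and 0.037 under the same pair. Plin2 was 0.080 in the joint model and ranged from -0.25 to 0.022 (without air replicate 1) as each rat was left out. Between BALF cells and blood of air rats, Gpihbp1, not detected in either, was 0.32 with the authors' values (adjusted p = 0.00218) and ranged from -0.032 to 0.016 as each air rat was left out. Over the air rats in place of the silica rats, r between lung and BALF level was -0.056 for Lpl, -0.21 for Plin2 and -0.12 for Cd36. The cause of these changes was not tested.

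Replicate numbers are shared between air and silica rats, and the labels do not give them as pairs. The correlation of deviations lay between -0.31 and 0.33 over 18 pairs. Of the 18, 4 correlated best with their own number: lung pair 6 and BALF pairs 1, 2 and 6. What the shared numbers stand for was not tested. With the replicate block, the lung count stayed at 4 genes and the blood count at 0, and BALF cells had 3, with Cd36 at -0.22 (adjusted p = 0.0381). Over all lung probes the block gave 858 higher and 920 lower against 1022 and 1160. Over all BALF probes it gave 1511 higher and 1881 lower against 1493 and 1854. A median shift moved the median difference over all probes between lung and blood from 0.01 to -0.10. A block for slide or scan date was not run. Dim signal limits blood, where 2 of 6 genes were not tested, and bright signal limits Lpl and Plin2 in BALF cells.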
